A study of Mus musculus with 8 samples.

Results

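Of the 8031 regions of reduced chromatin accessibility (RCAs) in Alb-D2KO liver, 222 (2.76%, 95% Wilson interval 2.43 to 3.15%) lay at the start of a gene that the annotation does not class as protein-coding. A region was a member when it overlapped the 200 bp on either side of a transcript start of a gene whose type in the GENCODE M21 annotation of mm10 was other than protein-coding, and overlapped no such window of a protein-coding gene. The members were taken by the gene whose start was nearest to the summit, the point of strongest signal, and comprised 68 regions at long intergenic noncoding RNA (lincRNA) genes, 50 at antisense genes, 22 at other long noncoding genes (of which 16 were processed transcripts), 10 at microRNA (miRNA) genes, 22 at other small RNA genes, 27 at pseudogenes and 23 at provisional gene models (TEC, single transcripts still awaiting experimental proof). The rule used no measured value beyond presence in the list, although it was chosen with earlier results of these data known.

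The regions came from ATAC-seq, in which a transposase inserts sequencing adapters into open chromatin, on nuclei of frozen adult liver from C57BL/6 mice. Alb-D2KO mice carried a floxed Dio2, the gene of the type 2 deiodinase that makes active thyroid hormone, deleted by Cre recombinase under the albumin promoter, and the control animals expressed Cre as well. There were 4 control and 4 Alb-D2KO libraries, and open regions were called on the libraries of each genotype together, so each region has a single value and no replicate error. An RCA is a region called in control liver that overlaps no region called in Alb-D2KO liver, and its Alb-D2KO signal is not given in the list. The deletion is confined to cells that express albumin, whereas the nuclei were those of whole liver, and fewer nuclei of a cell type cannot be told apart from less accessibility per nucleus.

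Long noncoding RNA genes are transcribed by RNA polymerase II, often from promoters with fewer CpG dinucleotides than those of coding genes, and antisense RNAs run across a coding gene on the opposite strand. Small nuclear RNAs build the spliceosome, small nucleolar RNAs guide the processing of ribosomal RNA, and several other small RNAs are made by RNA polymerase III. A miRNA gene is annotated as its hairpin, which is cut from a longer transcript, so that the annotated start is the end of the hairpin and need not be a promoter. Pseudogenes are disabled copies of genes, and many have no promoter of their own.

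The members with the strongest signal of each class are shown first because they lead their class by area. Each line gives 150 bases of mm10 centred on the summit, read 5′ to 3′ along the gene, with capitals marking the exact letters of any of the 11 short motifs that are described with their shares further on, on either strand. The classes are, in the order printed, small RNA, other long noncoding, antisense, lincRNA, TEC and pseudogene.
Gm27702, chr19:5824563-5824712, minus strand: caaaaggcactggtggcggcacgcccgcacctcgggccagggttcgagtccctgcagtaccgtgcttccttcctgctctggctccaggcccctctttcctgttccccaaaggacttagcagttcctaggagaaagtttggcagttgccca
Ptpmt1, chr2:90918508-90918657, minus strand: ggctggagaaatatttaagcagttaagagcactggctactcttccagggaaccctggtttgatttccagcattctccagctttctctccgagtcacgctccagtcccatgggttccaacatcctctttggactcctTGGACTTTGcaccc
Kdm6bos, chr11:69401355-69401504, plus strand: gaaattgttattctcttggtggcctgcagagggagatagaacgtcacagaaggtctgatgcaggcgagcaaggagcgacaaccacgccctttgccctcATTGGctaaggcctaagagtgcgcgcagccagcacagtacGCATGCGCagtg
AI480526, chr5:123139127-123139276, minus strand: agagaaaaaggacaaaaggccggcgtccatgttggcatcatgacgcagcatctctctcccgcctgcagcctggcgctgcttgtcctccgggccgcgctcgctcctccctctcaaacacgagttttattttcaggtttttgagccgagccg
Gm37872, chr13:52022020-52022169, minus strand: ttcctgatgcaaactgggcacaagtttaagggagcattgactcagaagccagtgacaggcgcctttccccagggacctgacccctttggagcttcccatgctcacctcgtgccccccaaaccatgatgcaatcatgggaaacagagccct
Hyi, chr4:118359907-118360056, plus strand: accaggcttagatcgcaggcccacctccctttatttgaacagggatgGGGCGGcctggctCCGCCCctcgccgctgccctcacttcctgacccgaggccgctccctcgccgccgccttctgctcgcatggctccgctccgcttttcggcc

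The next windows, with the same capitals, belong to members found at the start of a gene in 2 lists. These hold known liver and ubiquitous long noncoding RNAs, and miRNA host genes together with the long noncoding RNA gene Mirt2.
Hnf4aos, chr2:163541646-163541795, minus strand: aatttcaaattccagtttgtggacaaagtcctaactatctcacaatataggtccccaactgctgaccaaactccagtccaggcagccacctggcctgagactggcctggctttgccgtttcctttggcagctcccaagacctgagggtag
Mir99ahg, chr16:77329266-77329415, plus strand: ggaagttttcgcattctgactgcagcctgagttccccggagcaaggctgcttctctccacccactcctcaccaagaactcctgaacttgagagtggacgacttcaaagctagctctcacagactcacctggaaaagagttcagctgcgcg
Mirt2, chr15:76269898-76270047, minus strand: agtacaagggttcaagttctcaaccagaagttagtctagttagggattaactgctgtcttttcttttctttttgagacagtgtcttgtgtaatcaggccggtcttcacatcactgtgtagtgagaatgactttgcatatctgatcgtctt
Neat1, chr19:5827324-5827473, minus strand: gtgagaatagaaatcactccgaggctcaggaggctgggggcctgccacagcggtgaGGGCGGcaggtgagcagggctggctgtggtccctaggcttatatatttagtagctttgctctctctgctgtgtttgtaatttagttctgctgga

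For the small RNA members whose gene symbol names a known RNA, 150 bases are given from 120 before the annotated start, with the bases of the RNA itself in capitals. These show the sequence upstream of the start, which the lost regions did not all cover. The Rnu3b1 region, for example, began at 87443400, past the printed bases.
Rny3, chr6:47781504-47781653, plus strand: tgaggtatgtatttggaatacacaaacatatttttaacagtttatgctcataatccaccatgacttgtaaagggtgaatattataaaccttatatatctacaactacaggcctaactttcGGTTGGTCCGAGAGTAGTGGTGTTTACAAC
Rnu2-10, chr11:101658118-101658267, plus strand: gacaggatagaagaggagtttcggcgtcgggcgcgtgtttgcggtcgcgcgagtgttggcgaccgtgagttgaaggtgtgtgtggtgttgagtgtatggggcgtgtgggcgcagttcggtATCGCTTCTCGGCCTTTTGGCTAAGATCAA
Rnu1a1, chr11:87422747-87422896, plus strand: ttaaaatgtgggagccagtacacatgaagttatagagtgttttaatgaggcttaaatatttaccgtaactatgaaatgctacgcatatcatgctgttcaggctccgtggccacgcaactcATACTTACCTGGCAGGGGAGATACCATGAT
Snord118, chr11:69073307-69073456, plus strand: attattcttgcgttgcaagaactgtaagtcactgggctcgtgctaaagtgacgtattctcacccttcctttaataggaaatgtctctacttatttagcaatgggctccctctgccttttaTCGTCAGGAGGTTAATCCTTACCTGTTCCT
Terc, chr3:96414830-96414979, minus strand: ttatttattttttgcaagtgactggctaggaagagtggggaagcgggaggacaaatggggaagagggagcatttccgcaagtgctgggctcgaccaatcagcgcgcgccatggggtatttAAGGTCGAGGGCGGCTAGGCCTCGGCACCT
Rnu3b1, chr11:87443117-87443266, plus strand: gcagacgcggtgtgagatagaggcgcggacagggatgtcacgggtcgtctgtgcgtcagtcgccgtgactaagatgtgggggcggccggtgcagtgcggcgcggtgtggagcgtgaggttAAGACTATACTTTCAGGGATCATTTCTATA
Rnu3a, chr10:40258347-40258496, plus strand: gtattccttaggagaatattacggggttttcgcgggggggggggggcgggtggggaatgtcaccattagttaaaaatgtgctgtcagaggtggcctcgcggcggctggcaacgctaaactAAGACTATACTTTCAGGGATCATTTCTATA
Rnu5g, chr9:65201812-65201961, minus strand: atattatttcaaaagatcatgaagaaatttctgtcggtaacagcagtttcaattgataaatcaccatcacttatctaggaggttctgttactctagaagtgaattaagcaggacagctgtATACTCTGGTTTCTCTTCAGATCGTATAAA

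RefSeq holds mature sequences for 5 of the 13 miRNA symbols at member starts, given here on GRCm38.p6 with the seed (bases 2 to 8) in capitals. No seed was shared between these genes.
mmu-miR-1905, chr3:88536311-88536332, minus strand: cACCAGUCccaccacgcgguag
mmu-miR-455-5p, chr4:63256867-63256888, plus strand: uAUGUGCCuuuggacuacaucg
mmu-miR-455-3p, chr4:63256904-63256924, plus strand: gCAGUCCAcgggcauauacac
mmu-miR-3968, chr11:115447969-115447989, minus strand: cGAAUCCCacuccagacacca
mmu-miR-203-5p, chr12:112130889-112130910, plus strand: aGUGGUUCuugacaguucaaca
mmu-miR-203-3p, chr12:112130927-112130948, plus strand: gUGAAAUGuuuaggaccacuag
mmu-miR-6715-5p, chr19:55192678-55192700, plus strand: aCAGGCACcacagguuugagcau
mmu-miR-6715-3p, chr19:55192714-55192734, plus strand: cCAAACCAggcgugccugugg

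The signal of a member, which is the area under the curve of its −log10 p in the pooled call of the control libraries, ran from 200.01 to 992, with a median of 297 and quartiles of 248 and 378. The lower end sat at the smallest area in the deposited list, 200.004, and 62 of the 222 members had a signal under 250, whereas 23 reached 500. By class the medians lay close together, at 296 for lincRNA, 292 for antisense, 312 for other long noncoding, 328 for miRNA, 303 for other small RNA, 289 for pseudogene and 291 for TEC genes. The classes overlapped over nearly their whole range, and the plot of signal by gene type shows that a few regions of each class stood apart at the upper end. Members were narrow, at a median width of 370 bp (range 154 to 1235 bp), and together they covered 90.4 kb. The −log10 q at the summit ran from 2.23 to 4.60.

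**Figure D1:**
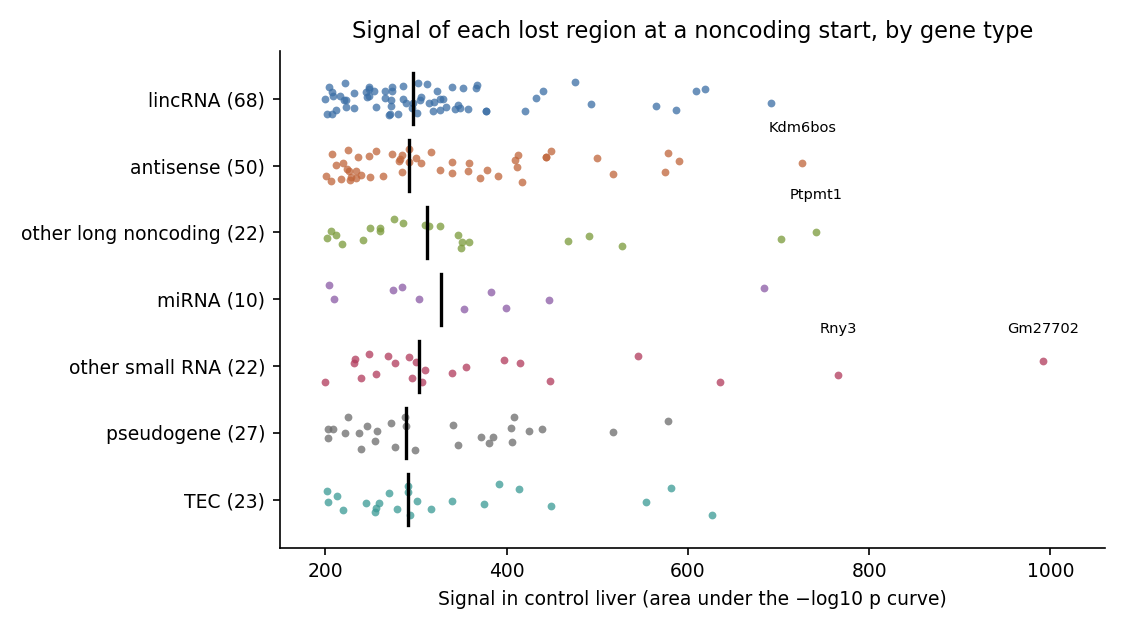
Signal in control liver (area under the −log10 p curve) of each of the 222 lost regions, 1 point a region, by gene type with the number of regions in brackets; black bars are medians and vertical scatter has no meaning. Medians lay between 289 and 328, and the highest point was Gm27702 at 992.

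The question of which kinds of gene had an RCA at a start was answered over the whole annotation. An RCA lay at a start of 2.93% of all 55450 annotated genes (1626 genes), of 5.94% of protein-coding genes and of 0.964% of the 33499 genes of other types (323 genes). Those 323 included 89 whose region also lay at a coding start, so that 234 genes belong to the 222 members. The class shares that follow also count regions that lay at a coding start as well. Other long noncoding genes had the highest share of the noncoding classes, 3.66% of 1340 genes (2.78 to 4.80%), followed by antisense genes with 2.60% of 2959 (2.09 to 3.24%). LincRNA genes had 1.43% of 5856 (1.16 to 1.77%) and miRNA genes 1.23% of 2202 (0.844 to 1.78%), and these neighbours in the order had overlapping intervals. TEC genes had 0.839% of 3219 and other small RNA genes 0.768% of 3906. With only genes at a member counted, the shares were 1.72% for other long noncoding, 1.66% for antisense and 1.21% for lincRNA genes. They were 0.715% for TEC, 0.666% for other small RNA, 0.636% for miRNA genes and 0.207% for pseudogenes. Pseudogenes, which are the largest class, had 0.214% of 13523 (0.149 to 0.308%), the lowest share of the 7 classes with members, and none of 494 immunoglobulin or T cell receptor segments had an RCA at a start (upper limit 0.772%). Among the annotation's finer types, 17 of 190 genes annotated as bidirectional promoter RNAs (8.95%, 5.66 to 13.9%) had an RCA, but the regions of all except 1 also lay at a coding start, and 1700026N04Rik, 234 bp from the start of Dek, was the member. Shares over genes are counts in a single pair of pooled calls, they were not tested, and they do not take account of how many genes of each type were open in control liver at all. Over all control regions, 35.9% were RCAs when the region numbers, which reach 22368 calls, are read as the number called.

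**Figure D2:**
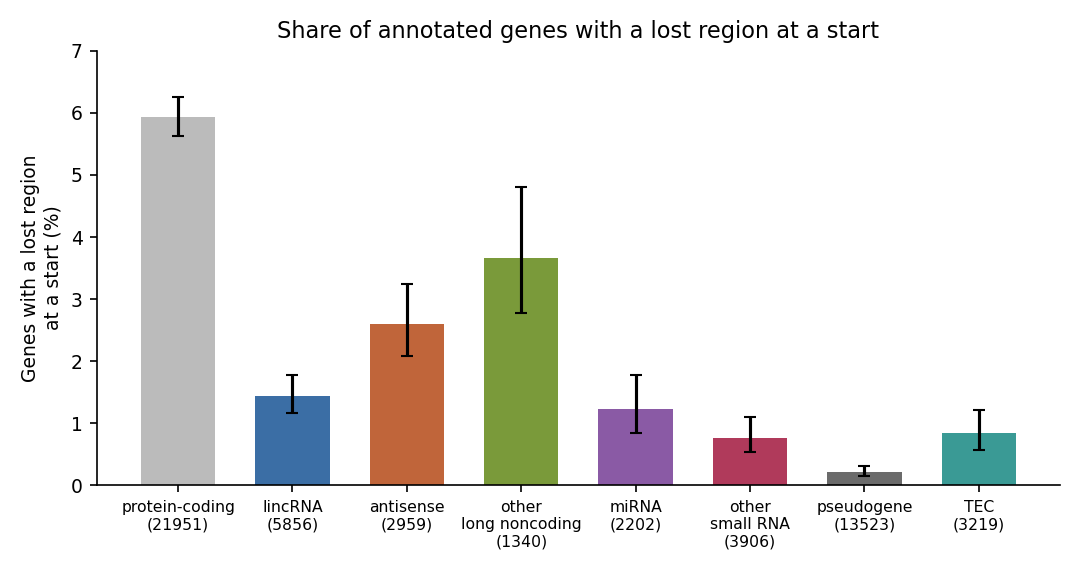
Share of annotated genes of each type (number of genes in brackets) with a lost region within 200 bp of a transcript start, in percent; error bars are 95% Wilson intervals, which cover counting over genes only. Regions that also lay at a coding start are counted. Protein-coding genes stood at 5.94%, other long noncoding genes at 3.66% and pseudogenes at 0.214%.

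Members differed from the 1338 RCAs at protein-coding starts mainly in their base composition. A region was called CpG-rich when its GC content was at least 50% and its observed to expected CpG ratio at least 0.6, and 41 of 222 members (18.5%, 13.9 to 24.1%) met this against 750 of 1338 regions at coding starts (56.1%, 53.4 to 58.7%). The odds ratio was 0.178 (95% interval 0.121 to 0.255), with an adjusted p of 1.09e-25 by a two-sided Fisher's exact test over regions, Benjamini-Hochberg adjusted over 6 properties. RCAs away from any start were CpG-rich in 6.18% of 6471 cases. The CpG-rich share was not taken over all annotated starts, lost or not, so nothing is read from the difference about the loss. Widths of at least 500 bp were found in 51 members (23.0%) and 413 regions at coding starts (30.9%), an odds ratio of 0.668 (0.469 to 0.940) that missed the threshold after adjustment (p = 0.0174, adjusted p = 0.0521, Fisher's exact test). A signal of at least 300 was reached by 108 members (48.6%) and 690 regions at coding starts (51.6%), with an odds ratio of 0.890 (0.663 to 1.19, adjusted p = 0.426 by the same exact test). Another RCA lay within 5 kb of 65 members (29.3%) and of 328 regions at coding starts (24.5%; odds ratio 1.27, 0.915 to 1.76, adjusted p = 0.267, exact test). For the rare properties, 1 member and 1 coding-start region were repeat-masked over at least 50% of their length, and near-identical copies at other sites were found for 3 members and 10 coding-start regions, with adjusted p of 0.397 and 0.426 in Fisher's exact test and intervals of the odds ratio that span 1 widely. Regions are not animals, so these tests compare classes of regions within a single list.

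**Figure D3:**
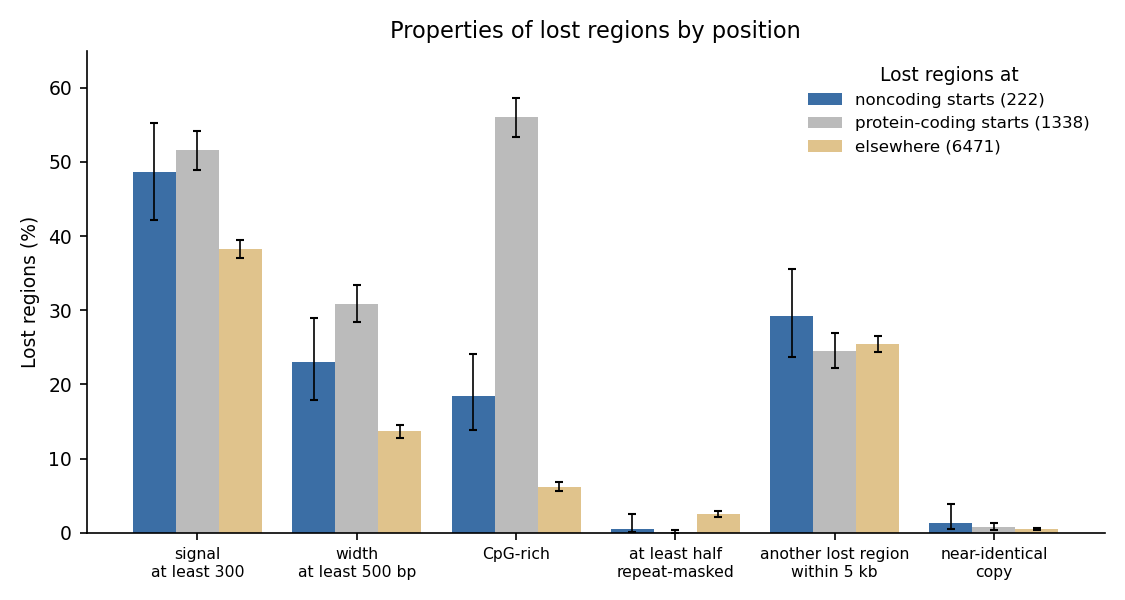
Share of lost regions with each of 6 properties (percent), at noncoding starts (222 regions), at protein-coding starts (1338) and elsewhere (6471); error bars are 95% Wilson intervals. The CpG-rich share was 18.5% at noncoding and 56.1% at coding starts, whereas the shares with a signal of at least 300 were 48.6% and 51.6%.

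An annotated start lay inside the region in 163 of 222 members (73.4%), and in the other 59 it lay up to 198 bp beyond the edge. Summits fell upstream of the start, along the gene, in 132 members (59.5%, 52.9 to 65.7%), and 164 summits (73.9%) were within 200 bp of it, which the membership rule favours. The side differed by class in the counts. Summits were upstream in 45 of 68 lincRNA and 33 of 50 antisense members, with median positions of −48 and −31.5 bp, whereas they were upstream in 13 of 27 pseudogene and 9 of 22 other small RNA members, with medians of 46 and 24.5 bp downstream. At the limit of the window, 17 members had their start in the outermost 50 bp of the window, and 16 further regions would have entered with a window of 250 bp. The last member inside was A230083G16Rik, at 198 bp with a signal of 417, and the first region outside was that of Gm37432, at 203 bp with a signal of 257.

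**Figure D4:**
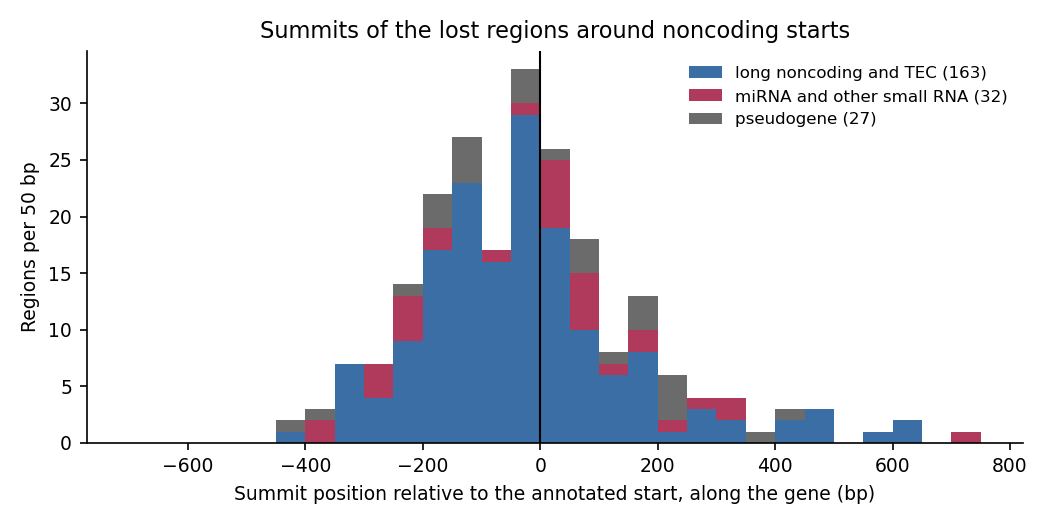
Number of lost regions by the position of the summit relative to the annotated start, in 50 bp steps along the direction of the gene (negative values are upstream), stacked for long noncoding and TEC (163), miRNA and other small RNA (32) and pseudogene (27) members. The vertical line is the start, and 132 of 222 summits lay to its left.

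Most members (143, 64.4%) overlapped no coding gene. Of the others, 62 lay in an intron, 11 touched a coding exon, 5 an untranslated exon and 1 a noncoding exon of a coding gene. A coding start was within 5000 bp of 66 members (29.7%) and within 50 kb of 187 (84.2%). The rule leaves out regions at coding starts, and these shares were not taken over all noncoding starts. LincRNA members lay outside coding genes in 62 of 68 cases, at a median of 27962 bp from the nearest coding start, while 27 of 50 antisense members were intronic, at a median of 4447.5 bp. Both types are named for their position relative to coding genes, so this contrast follows at least in part from the labels. Nothing is read from it about the loss. A coding start was within 1000 bp of 27 members (12.2%, 8.49 to 17.1%), and 13 of these were antisense. In 15 of the 27 the noncoding and the coding gene were on opposite strands with each start downstream of the other, so that they run into each other (convergent), in 9 they ran apart from a shared upstream side (divergent), and 3 were on the same strand. Orientation was judged from the nearest coding start alone, so a divergent pair can still overlap through another start of the coding gene. Of the 41 CpG-rich members 11 were among them, and of the other 181 members 16. At the far end, 35 members (15.8%) were over 50 kb from any coding start.

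LincRNA members were led by AI480526 (chr5:123139013-123139645), with a signal of 692, whose region also lay at a start of 4932422M17Rik and 2548 bp from that of Setd1b, a histone H3 lysine 4 methyltransferase gene transcribed in the other direction. A730043L09Rik on chromosome 9 (619), AC113961.1 on chromosome 19 (609), Gm26698 on chromosome 12 (587) and E130102H24Rik on chromosome 4 (565) came next. Of these 5, the E130102H24Rik region alone was CpG-rich, with a GC content of 64.4%, and it had a second member 394 bp away with a signal of 207. The weakest member of all was the lincRNA Gm12148 (chr11:43385240-43385625), with a signal of 200.01.

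Neat1, the long noncoding RNA that builds nuclear paraspeckles, had a member at an annotated start within the gene (chr19:5827056-5828032) with a signal of 333 and the second lowest −log10 q of the members, 2.36. Its summit lay 613 bp inside the transcript. The strongest member of all, Gm27702 with a signal of 992 (rank 13 of all RCAs), is a small RNA gene of 56 bp that starts at 5824707, the base after the point where the Neat1 gene ends at 5824708 on the minus strand. Another member, at Gm27533 (239), lay near the 5′ end of the gene, and 9 RCAs overlapped Neat1 in all, of which the highest, with a signal of 5697, was the strongest in the list but was no member.

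Antisense members were led by Kdm6bos (chr11:69401276-69401743), with a signal of 726 and the highest −log10 q of all members, 4.60. It runs opposite to Kdm6b, a demethylase of histone H3 lysine 27, and its region, which overlapped a coding exon, lay 2472 bp from the Kdm6b start. Gm16537 (chr15:99723859-99725093, signal 590) was the widest member, at 1235 bp, and lay 525 bp from the start of Cox14, a factor in the assembly of cytochrome c oxidase. Gm11963 (chr11:5499032-5499630) had a signal of 578, with a second region of 285 at a distance of 117 bp. The closest coding start was that of Xbp1, a transcription factor of the unfolded protein response, 21029 bp away. B630019A10Rik (574) lay 32520 bp from St6gal1, a sialyltransferase gene, and Gm30025 (517), a CpG-rich region, 629 bp from Dcaf5.

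Hnf4aos, the antisense neighbour of the hepatocyte nuclear receptor gene Hnf4a, had a member (chr2:163541597-163541937) with a signal of 409. Its summit lay 1 bp before the annotated start, in an intron of a coding gene and 4880 bp from the nearest Hnf4a start, with both genes running apart. Mirt2, a long noncoding RNA gene (chr15:76269818-76270159) had a signal of 358 and lay in an intron of a coding gene. Among the convergent pairs, chosen after their values were seen, Gm11789 (359) lay 742 bp from the start of Gcgr, the glucagon receptor gene of hepatocytes, Gm11788 (340.0) lay 574 bp from Slc25a10, a mitochondrial dicarboxylate carrier gene, and Gm11175 (499) lay 787 bp from Jund, a gene of the AP-1 transcription factor.

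Other long noncoding members were led by Ptpmt1 (chr2:90917740-90918647), with a signal of 741. The gene encodes a mitochondrial phosphatase of cardiolipin synthesis, and it is a processed transcript in GENCODE M21 but protein-coding in RefSeq. RefSeq also counts as coding the genes of 2 further members, Spata5l1 (241), another processed transcript, and Zfp469 (220), a lincRNA gene in GENCODE, so that 3 of the 140 members with a RefSeq match were at genes that RefSeq counts as coding. AC117700.1 (702), Gm11753 (528), 5033403H07Rik (491) and 1700108F19Rik (468) followed. Mir99ahg, the host gene of a cluster of miRNAs that includes miR-99a, had a member (chr16:77329200-77329648) with a signal of 286 and a summit 13 bp after the start.

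At small RNA genes the second strongest member of all was that of Rny3 (chr6:47781095-47781861), with a signal of 766. Rny3 encodes a Y RNA, which is bound by the Ro60 protein and is made by RNA polymerase III. The letters TATAAA stood 39 to 34 bases before its annotated start, and none of the other members of this class had them on the gene strand in the 100 bases before the start. Snord118, the U8 RNA of ribosomal RNA processing, had a signal of 636 (chr11:69073072-69073678), with the summit at −229 bp from the start, and Gm25661, annotated as a ribozyme, had 545. Terc, the RNA template of telomerase, had a member (chr3:96414578-96414908) with a signal of 277, and its region was CpG-rich.

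Spliceosomal and nucleolar RNA genes gave several pairs of regions on chromosome 11, named here after their values were seen. Rnu1a1, a U1 gene, had regions of 200.2 and 340, of which the latter held its start, Gm22068, another snRNA gene, had 306, and Rnu3b1, a U3 gene, 231, all within 21140 bp. At Rnu2-10, a U2 gene, regions of 310 and 448 lay on either side of the start and neither contained it, and Gm23971 next to it had 256. These genes are repeated in the genome: at 95% identity over 80% of the length the Rnu1a1 sequence was found 26 times, that of Rnu2-10 13 times and that of Rnu3b1 7 times, the gene itself included, whereas Rny3 and Terc were found 1 time each. The authors removed poorly mapped reads, and the part of that filter in where these regions break off was not tested. Of 1383 annotated snRNA genes 8 had an RCA at a start (0.578%), and of 1507 snoRNA genes 10 (0.664%).

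All 10 members with a miRNA gene as the nearest start are given here. Mir3968 (chr11:115447502-115448424) was the strongest, with a signal of 684, and it lay across a coding exon, as did Mir1905 (383), Gm24328 (353) and Mir6715 (303). Mir203 (447) lay 9832 bp from the start of Aspg, an asparaginase gene, and its summit was 320 bp after the start of the hairpin. Gm27463 (399) lay among the Cyp2d genes of cytochrome P450 enzymes. Gm47295 (285), n-TStga1 (275), which RefSeq lists as a transfer RNA gene, Gm22175 (209.9) and Mir455 (204), in an intron of a coding gene, were weaker. The Gm22175 region was the only member repeat-masked over at least 50% of its length, and its −log10 q, 2.23, was the lowest of the members.

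Pseudogene members were led by Hyi (chr4:118359684-118360784), with a signal of 578 in a CpG-rich region of 1101 bp and a summit 8 bp before the start. Hyi encodes a hydroxypyruvate isomerase in other genomes and is annotated as a polymorphic pseudogene, a gene disabled in the reference strain. The other polymorphic pseudogenes were H2-Bl (406), of the class I histocompatibility family, and Gbp11 (404), of the guanylate-binding proteins. All 3 exceeded the median of the pseudogene members, while the median of the 13 processed pseudogenes, which arise by reverse transcription, was 273. Gm45893 (517), 2810039B14Rik (439), Olfr542-ps1 (425, with a second region of 347) and Cyp2d38-ps (408) completed the 5 strongest. In the Cyp2d cluster of chromosome 15, Gm19267 had 2 further members, of 255 and 381.

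TEC members were led by Gm37872 (627) and Gm43999 (581), the latter in an intron of a coding gene. AC167363.2 (554; chr17:29094069-29095031) was a CpG-rich region 288 bp from a start of Cdkn1a, the gene of the cell cycle inhibitor p21, and Gm47205 (449) lay 820 bp from that of Bcl9l, a coactivator of Wnt signalling. Gm43412 (414) overlapped an untranslated exon.

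Members were seldom grouped with each other. With gaps of at most 100 kb, 29 members fell into 12 groups, of which 4 held 3 or more: the groups around Rnu1a1, Rnu2-10 and Neat1 described above, and Gm40787, Gm46204 and Gm35696 on chromosome 10 (305, 202 and 253). Near-identical copies elsewhere were found for 3 member regions, those of Speer4cos (443, 4 copies), Gm23971 (256, 1 copy) and AI506816 (218, 1 copy). By chromosome, members made up between 1.63% (chromosome 14) and 4.36% (chromosome 15) of the RCAs of chromosomes 1 to 19, and 1 of 40 on X.

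Lists of known genes were counted beside all genes of the annotation. A member lay at a start of 0.699% of all genes other than protein-coding, and an RCA lay within 5 kb of the body of 6.07% of them, of 9.46% of lincRNA genes, of 6.40% of miRNA genes and of 21.1% of protein-coding genes. Of 36 annotated genes on the list of liver and ubiquitous long noncoding RNAs, 3 had a member at a start (Neat1, Terc and Hnf4aos). An RCA lay within 5 kb of 9. The annotation types Gm20878 on this list as protein-coding, which the rule excludes, and counts Terc among the small RNAs. The list of miRNA host genes also took in Mirt1 and Mirt2, long noncoding RNA genes that are not shown here to host a miRNA. Of its 12 annotated genes, 2 had a member at a start, the host gene Mir99ahg and Mirt2. None of 17 snoRNA host genes had a member at its own start, which the rule excludes for Snhg11, typed protein-coding. An RCA lay within 5 kb of 4, of which the region near Snhg17 was the member at the snoRNA gene Gm23925 (414). None of 84 miRNAs of the liver list had a member at the hairpin, and 19 had an RCA within 5 kb, which came to 15 distinct regions. Clustered miRNAs shared a region, as Mir106b, Mir93 and Mir25 did with a region of 517. Among the 19 was Mir122, the most abundant miRNA of hepatocytes, and its stronger region (312) was itself a member, at the start of the lincRNA AC157910.3. These counts were not tested against the shares of all genes, and nothing is read from them about the lists.

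Short motifs were counted as exact letters on either strand in the 300 bp around each summit, beside the same count in 300 bp around all 39185 noncoding and all 93459 coding starts. GGGCGG, the box bound by SP1, was in 50 of 222 members (22.5%, 17.5 to 28.5%), against 11.0% of all noncoding starts, 38.9% of all coding starts and 50.4% of RCAs at coding starts. In RCAs away from starts its share was 10.7%. TTGCNNAA, a consensus of C/EBP factors, was in 43 members (19.4%, 14.7 to 25.1%), against 11.7% of noncoding starts and 10.9% of RCAs at coding starts, and it was in 20.0% of RCAs away from starts. AGGTCA, the single site of nuclear receptors, was in 59 members (26.6%, 21.2 to 32.8%) and in 18.7% of all noncoding starts, 19.4% of RCAs at coding starts and 32.4% of RCAs away from starts. It stood in 21 of 68 lincRNA and 12 of 27 pseudogene members but in 2 of 22 other small RNA members. These windows were placed on summits in the members and on starts in the backgrounds, and the shares were not tested.

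The remaining motifs were rarer or nearer to the background. CCAAT was in 82 members (36.9%), against 38.3% of noncoding starts, and TATAAA in 26 (11.7%), against 16.5%. AGGGGGC, from the core of the CTCF motif, was in 13 members (5.86%), against 3.87% of noncoding starts and 13.7% of RCAs at coding starts. CCGGAAG (ETS factors) was in 12 members (5.41%), against 3.10% of noncoding starts, TGTTTAC (FOXA) in 12 (5.41%), against 3.37%, and AAGATGG (YY1) in 6 (2.70%), against 8.20%. GCATGCGC (NRF1) was in 5 members, Kdm6bos, Gm11175, Gm32834, Mir6715 and Spata5l1, which is 2.25% against 0.855% of noncoding starts. CAAAGTCCA (HNF4A) was in 5 as well, 6330576A10Rik, Ptpmt1, Gm7457, Gm44203 and Gm19267, which is 2.25% against 0.582%. In RCAs away from starts the shares were 33.4% for CCAAT, 9.52% for TATAAA, 8.61% for AGGGGGC and 2.09% for CCGGAAG. There TGTTTAC was in 7.12%, AAGATGG in 4.74%, GCATGCGC in 0.511% and CAAAGTCCA in 2.93%. AGGTCA repeated in the same direction after 4 bases (DR4, a layout bound by thyroid hormone receptors) was in none of the 222 windows (upper 95% limit 1.70%) and in 0.0102% of noncoding starts, and a match or its absence says nothing of binding.

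**Figure D5:**
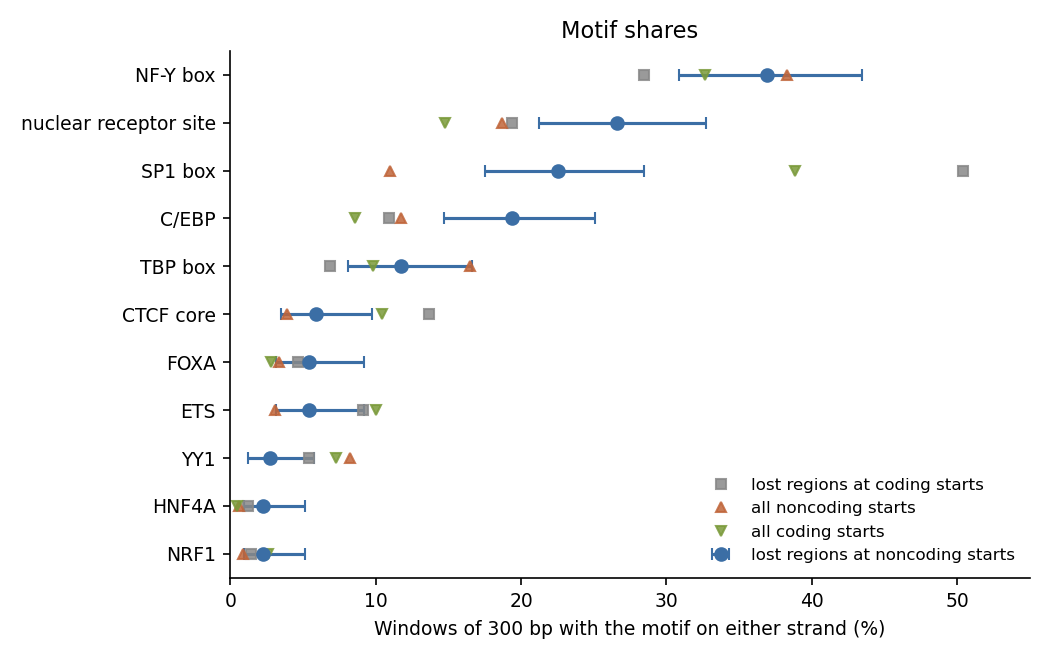
Share of 300 bp windows (percent) that hold each motif on either strand, for the 222 lost regions at noncoding starts (circles, with 95% Wilson intervals), the 1338 at coding starts (squares), all noncoding starts (upward triangles) and all coding starts (downward triangles); the NF-Y box is CCAAT and the TBP box TATAAA. The SP1 box was in 22.5% of the members, between 11.0% of all noncoding starts and 50.4% of lost regions at coding starts.

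In the other direction, 7 of the 250 regions open only in Alb-D2KO liver (2.80%, 1.36 to 5.67%) met the same rule, a share close to the 2.76% of the RCAs. They lay at Gm5524, Gm37027 and Gm13021 (lincRNA), at Gm13284, Gm13228 and Gm9269 (pseudogenes) and at Gm40377 (TEC). Their signals, from the pooled call of the Alb-D2KO libraries, ran from 202 to 340. None was at a gene with a member, but only 0.699% of all genes other than protein-coding had one, so nothing is read from this.

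As a check on the tissue, RCAs lay within 5 kb of 8 of 10 hepatocyte marker genes, 1 of 4 cholangiocyte and none of 5 Kupffer cell markers. The same held for 2 of 5 endothelial, none of 4 stellate and 1 of 5 lymphocyte markers. The share was 12.0% of all annotated genes and 21.1% of protein-coding genes. The part of cell composition in the results was not tested. No region of either list lay within 5 kb of Dio2, so the lists hold no check of the deletion.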

How the data were processed

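Reads were trimmed (NGmerge), placed on mm10 (BWA 0.7.17) and filtered by the authors, who removed duplicates and poorly mapped reads. The paper states that Genrich 0.6 on single libraries gave only a few regions, which it judged not to stem from ATAC enrichment. Those regions were merged and left out. Open regions were then called on the libraries of each genotype together, and regions that overlapped the other genotype were subtracted. The deposited signal is the area under the −log10 p curve of a region. The deposited −log10 q is that of its summit, and the deposited score and −log10 p were not analysed. Library depth is unknown from these lists, and intervals cover counting over regions or genes only.

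Starts and gene types were those of GENCODE M21 (GRCm38), and sequence was that of RefSeq GRCm38.p6, which shares the mm10 chromosomes. Copies were sought with BLAST 2.17.0 (at least 95% identity over 80% of the length). Fisher's exact tests (SciPy 1.17.1, two-sided, adjusted over 6 properties) were tested on simulated data. The members and gene lists were chosen with earlier results of these data known. Genes named are the 5 strongest of each class (miRNA joined with other small RNA), every miRNA member, members at listed genes, the 2 weakest, and those behind counts of 5 or fewer, and the text says where others were added. Alternatives covered the window, the annotation, the thresholds and the merging of regions. Sequence of members on chromosome 18 is not printed.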

Additional observations from a re-analysis of the deposited data

How the results depend on the processing

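The number of members was 393 with a window of 1000 bp and 108 when a signal of at least 300 was asked for, and it stayed within 1.5 times of 222 under the other 11 alternatives. The share with a signal of at least 300 was 41.2% with the 1000 bp window and 61.5% at a q threshold of 0.001. The CpG-rich difference kept its direction and its call under every alternative run. The difference in width passed the threshold with windows of 100, 500 and 1000 bp (odds ratios 0.653, 0.673 and 0.604), without automatic annotation (0.571) and with coding starts excluded within 1000 bp (0.634). With the 1000 bp window the difference in signal passed it too (0.753, adjusted p = 0.0228, Fisher's exact test), and with 500 bp those in repeats (7.88) and in neighbouring RCAs (1.37). With the 200 bp window the repeat difference rested on 1 member. Its odds ratio there fell to 0 without automatic annotation, at a q threshold of 0.001 and with a signal of at least 300. The 1000 bp window raised the regions open only in Alb-D2KO liver from 7 to 11. By class, the q threshold of 0.001 left 43 lincRNA, 14 other long noncoding and 15 pseudogene members, the summit rule left 13 other small RNA members, and leaving out automatic annotation removed all miRNA and other small RNA members. Over whole regions the C/EBP share was 27.9% and that of the single nuclear receptor site 34.2%. The causes of these shifts were not tested. No paired analysis was possible because the lists hold 1 pooled call per genotype, and for the same reason no animal could be left out.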
